A study of Drosophila melanogaster with 12 samples.

Results

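The comparison set transcript levels of Drosophila Kc167 cells 10 h after the start of an exposure to the cytokine Unpaired (UPD) against those of cells given Mock medium. Its members were the 2 arrays titled for UPD and the 2 titled for Mock at 10 h, which are 4 of the 12 arrays of the study. On them 18769 probe sets were compared, of which 6356 had a mean log2 value above 5, and these stood for 5363 genes with a probe set of their own. Kc167 is a line derived from Drosophila embryos with properties of blood cells. Cells in culture wells were given UPD or Mock conditioned medium for 30 min and were then kept in Schneider's medium until RNA isolation, at 2, 4 or 10 h from the first addition. All groups share the cell line, the 30 min exposure and the change of medium, and each medium and time has 2 biological replicates. The labels do not say which cells conditioned the media. At 10 h the cells had thus been without added ligand for most of the time.

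UPD is a secreted cytokine-like ligand that binds the receptor Domeless (dome). The receptor activates the Janus kinase Hopscotch, which phosphorylates the transcription factor Stat92E, and Stat92E enters the nucleus and activates genes, among them feedback inhibitors of the SOCS family. In flies the pathway acts in embryonic segmentation, in stem cell niches, in blood cells and in the response to infection and injury.

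The markers of the line's labelled origin were partly present. Of 8 plasmatocyte (macrophage-like blood cell) markers 4 had a mean above 5, among them Hml, a clotting protein, at a mean of 8.31. None of 4 crystal cell markers, 2 muscle markers, 3 fat body markers and 4 gut markers had such a mean, whereas 2 of 4 lamellocyte, 1 of 3 neuronal and 2 of 4 germline markers did. The summed mean log2 values of the 8 plasmatocyte markers, 4 of them dim, were 30.8 in UPD and 37.7 in Mock as deposited. Each marker adds the median difference between the media to the gap between these sums. After that median difference was taken out, the 4 brighter markers differed by -0.81 (Hml), -1.43 (Pxn), -0.31 (srp) and 0.16 (crq). The 4 dim markers went both ways, from -2.03 (He) to 2.30 (eater), and none of the 8 passed the test used below. In RNA from a whole culture, a change in all cells and a change in some of them cannot be told apart.

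The 10 h arrays were the least even of the series. Their medians over the 6356 brighter probe sets were 7.18 and 7.77 for UPD and 8.21 and 7.81 for Mock, so both UPD arrays were below both Mock arrays. The median difference between UPD and Mock was -0.44 at 10 h, against -0.10 at 2 h and 0.03 at 4 h. All differences below are therefore relative ones: UPD minus Mock on the log2 scale after the median difference was taken out, and arrays are said to overlap or not after that shift. Single array values are given as deposited, first UPD replicates 1 and 2, then Mock replicates 1 and 2. The median replicate SD of the brighter probe sets was 0.420 for UPD and 0.469 for Mock. These values include the offsets between whole arrays. With each array centred on its own median, it was 0.118 for UPD and 0.293 for Mock. Across the brighter probe sets the replicates correlated with r = 0.989 for UPD and 0.922 for Mock, so the Mock replicates were the less alike.

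After 10 h, 26 probe sets passed limma's test at an adjusted p of 0.05, 20 higher and 6 lower in UPD, which is 0.139% of those tested (0.107% higher and 0.032% lower). Of the 26, 22 belong to a single gene, 16 higher and 6 lower. The genes that rose include those of serine proteases, a papain-type protease, a serpin, a chitinase-like growth factor and a leucine-rich repeat protein. The genes that fell encode a calpain, a DNA polymerase subunit, a ubiquitin ligase and chromatin proteins. Apart from the test, 186 of the 5363 genes lay at least 1 log2 unit higher in UPD without overlap of the arrays (3.47%) and 353 lay as much lower (6.58%). Counted by probe set these were 224 of 6356 higher (3.52%) and 410 lower (6.45%). No call remained when the variance trend and the robust setting were both left out of the moderation (0 calls, 1532 at an unadjusted p under 0.05). The same held when all 12 arrays were fitted with weights for each time (0 calls, 520 at an unadjusted p under 0.05). With each array centred on its own median, 444 probe sets passed, 297 higher and 147 lower.

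**Figure D1:**
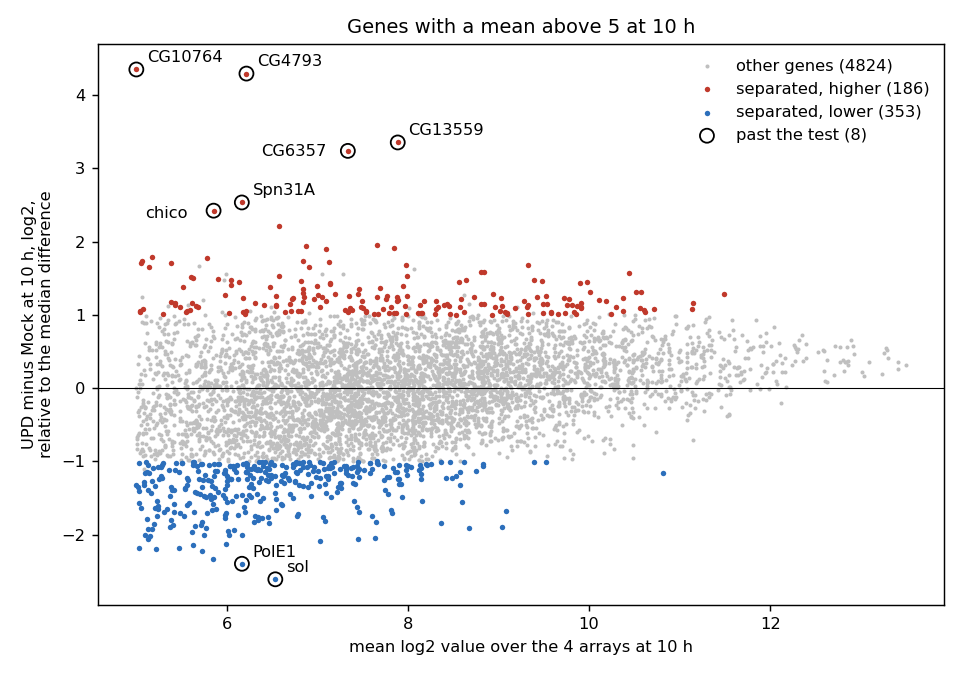
Relative difference between UPD and Mock at 10 h (log2) against the mean log2 value over the 4 arrays, 1 point for each of the 5363 genes with a mean above 5. Red and blue points are the 186 genes higher and the 353 genes lower by at least 1 log2 unit without overlap of the arrays, and circles mark the 8 genes past limma's test, 6 higher and 2 lower.

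Among the rises of genes with a mean above 5 were those of protease genes and a protease inhibitor. CG4793, which encodes a trypsin-like serine protease, read 7.91 and 8.38 in UPD and 4.46 and 4.12 in Mock. Both UPD arrays were far above both Mock arrays, a relative difference of 4.29 ± 0.57 (SE, n = 2 against 2), or 19.6-fold, with an adjusted p of 4.9e-10 in limma. Dimmer probe sets of CG4793, with means of 3.56 and -0.50, were also higher without overlap but did not pass. They had 1.72 (limma adjusted p = 0.69) and 2.35 (limma adjusted p = 0.83). CG6357, which encodes a papain-type cysteine protease, read 8.73 and 8.74 in UPD and 6.09 and 5.78 in Mock, a rise of 3.24 ± 0.55 (limma adjusted p = 1.1e-05). Spn31A encodes a serpin, a family that inhibits serine proteases. It read 6.93 and 7.49 in UPD and 5.41 and 4.82 in Mock, a rise of 2.53 ± 0.57 (limma adjusted p = 0.010). In the array values printed for these 3 genes the media did not overlap, and the spread between replicates was at most 0.59.

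The serine protease genes CG10764 and CG18557 rose against uneven Mock arrays. CG10764 read 6.90 and 7.01 in UPD and 1.56 and 4.53 in Mock, a relative difference of 4.35 ± 0.66 (limma adjusted p = 2.1e-07). CG18557 read 5.39 and 6.16 in UPD and -0.73 and 3.45 in Mock, a relative difference of 4.85 ± 0.87 (limma adjusted p = 4.2e-05). In both, each UPD array lay above both Mock arrays, but the Mock arrays were 2.96 and 4.18 apart. With each array centred on its own median the adjusted p was 0.14 for CG10764 and 0.075 for CG18557, and without Mock replicate 1 CG10764 had 0.14.

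Among other genes that rose, CG13559, for which no function is given here, read 8.87 and 9.82 in UPD and 6.91 and 5.95 in Mock. The rise was 3.35 ± 0.55, or 10.2-fold, with no overlap (limma adjusted p = 4.9e-06). Galphaf, an alpha subunit of heterotrimeric G proteins, read 6.07 and 6.95 in UPD and 3.46 and 3.21 in Mock, a rise of 3.61 ± 0.67 (limma adjusted p = 1.0e-04). Sid, a stress-induced DNase, read 5.97 and 6.43 in UPD and 3.29 and 2.31 in Mock, a rise of 3.84 ± 0.72 (limma adjusted p = 1.4e-04). In both, the gap between the media was several times the gap between replicates. Galphaf, Sid and the other called genes with a mean of 5 or less, 14 of the 22, fall outside the rule for naming genes and were chosen after their values were seen.

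Other rises came from probe sets that were dim or unread in Mock. The secreted leucine-rich repeat protein gene cDIP, a partner of Dpr cell surface proteins, read 5.41 and 5.99 in UPD and -1.004 and -0.09 in Mock, a relative difference of 6.69 ± 1.12 (limma adjusted p = 6.8e-06). Idgf1 encodes a chitinase-like imaginal disc growth factor and read 6.81 and 7.30 in UPD against -1.64 and 4.09 in Mock (relative difference 6.27 ± 0.83, limma adjusted p = 1.4e-08). Both genes were at moderate levels in UPD on both arrays, but the Mock arrays of Idgf1 were 5.73 apart and its adjusted p with each array centred was 0.49. CG15515 also passed but was dim on all 4 arrays, at 1.71 and 1.65 in UPD and -8.84 and -3.30 in Mock, so that the size of its difference carries little meaning. CG44251 (6.21), CG1648 (3.88), CG13506 (4.65) and the cytochrome P450 gene Cyp4p3 (5.29) passed too, with Mock arrays between 2.87 and 6.53 apart. Another, chico, the adaptor of the insulin receptor, read 6.95 and 6.74 in UPD and 2.78 and 6.94 in Mock. Its UPD arrays lay close to 1 Mock array, and its relative difference of 2.42 ± 0.60 (limma adjusted p = 0.045) became 0.14 without Mock replicate 1 (limma adjusted p = 0.999), and the call was also lost without either UPD array. Of the 22 genes, 15 passed with each array centred on its own median, 10 higher and 5 lower. CG4793 and Idgf1 kept the call without each of the 4 arrays in turn, and the other 20 lost it without at least 1 of them: CG6357 without UPD replicate 1, CG13559 without UPD replicate 2, Galphaf, Sid, cDIP and CG44251 without either UPD array, and Spn31A without any 1 of the 4.

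The genes that rose at 10 h were mostly above Mock at the earlier times, which have arrays and Mock controls of their own. At 4 h, 15 of the 16 had both UPD arrays above both Mock arrays, where 12.6% of all 11982 measured genes did, and CG15515 lay below. At 2 h it was 10 of 16, against 18.5% of all genes, and these 10 did not overlap at either time (all genes 3.76%). Their median relative difference was 0.77 at 2 h and 1.64 at 4 h. The 6 genes that fell had a median of 0.03 at 2 h and -0.04 at 4 h, and none of the 6 lay below Mock without overlap at 2 h (all genes 20.2%) and 2 did at 4 h (all genes 20.9%).

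The size of the earlier differences varied between the risen genes. The relative difference of cDIP was 2.63 at 2 h and 4.29 at 4 h, that of Galphaf 1.43 and 2.69, that of CG18557 1.79 and 2.66, that of Spn31A 1.39 and 2.06, and that of CG13559 1.66 and 1.89. At 2 h Galphaf, Spn31A and CG13559 had both UPD arrays at least 1 log2 unit above both Mock arrays. The UPD arrays of CG18557 overlapped with Mock at 2 h, and those of cDIP, at 2.90 and 2.97, lay close to 1 of its Mock arrays, which read 2.71 and -1.89. CG4793 had 0.82 at 2 h and 1.70 at 4 h. In each of these genes the difference at 10 h was the largest of the 3 times. CG6357 had 0.22 and 0.61, and Sid 0.50 and 0.48, small differences beside their values at 10 h. In the Mock arrays as deposited, CG4793 read 6.30 and 6.55 at 2 h and 5.55 and 5.71 at 4 h, and CG6357 read 7.58 and 7.65 at 2 h and 6.69 and 7.41 at 4 h. For both genes the Mock arrays at 10 h were thus the lowest of the 6 Mock arrays, and the UPD arrays at 10 h the highest of the 6 UPD arrays; levels between times were not tested.

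**Figure D2:**
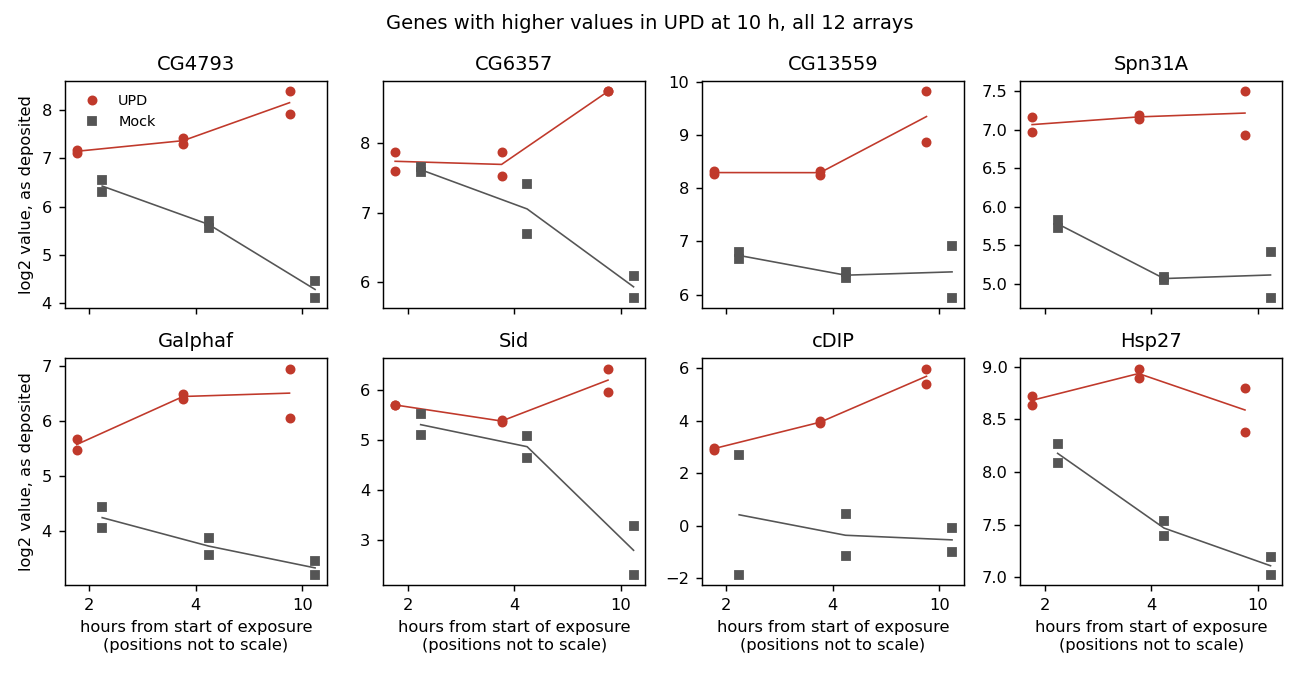
Deposited log2 values of 8 genes on all 12 arrays at 2, 4 and 10 h from the start of the exposure, with UPD arrays as red circles, Mock arrays as grey squares and lines through the means of 2 arrays; each panel has its own axis, and times are evenly spaced. In the UPD arrays of Galphaf, CG13559 and Spn31A the values stand above Mock at all 3 times, whereas CG6357 and Sid part from Mock mainly at 10 h.

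3 further genes lay higher without passing the 10 h test. CG14253 read 7.02 and 7.91 in UPD and 5.42 and 5.96 in Mock (2.21 ± 0.56, limma adjusted p = 0.051). Hsp27, a small heat shock protein that keeps unfolded proteins from clumping, read 8.38 and 8.80 in UPD and 7.20 and 7.02 in Mock (1.92 ± 0.55, limma adjusted p = 0.16). pirk, an inhibitor of the Imd immune pathway, read 6.99 and 7.98 in UPD and 6.51 and 5.88 in Mock (1.73 ± 0.55, limma adjusted p = 0.27). None of the 3 overlapped, and with each array centred on its own median all 3 passed, with limma adjusted p-values of 2.4e-04, 6.9e-05 and 0.0020. Hsp27 differed by 0.61 at 2 h and 1.44 at 4 h, and pirk by 1.05 and 0.39.

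Among genes with a mean above 5, sol and PolE1 fell. sol, small optic lobes, encodes a calpain-type cysteine protease and read 5.25 and 4.77 in UPD and 8.38 and 7.74 in Mock. The UPD arrays lay far below both Mock arrays, a fall to 0.164 of Mock (relative difference -2.61 ± 0.56, limma adjusted p = 0.0043). PolE1, the catalytic subunit of the replicative DNA polymerase epsilon, read 4.29 and 5.205 in UPD and 7.61 and 7.56 in Mock (-2.40 ± 0.57, limma adjusted p = 0.022). At 2 and 4 h sol differed by 0.01 and -0.25 and PolE1 by 0.02 and -0.07, small differences beside those at 10 h, although both genes lay below Mock without overlap at 4 h. With either gene, leaving out any of the 4 arrays took the adjusted p above 0.05, to between 0.058 and 1 for sol and between 0.22 and 0.64 for PolE1.

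The other 4 genes that fell had dim UPD arrays. HERC2, a large ubiquitin ligase, read -0.05 and -4.12 in UPD and 7.24 and 5.66 in Mock (-8.10 ± 1.26, limma adjusted p = 4.4e-07), and without Mock replicate 1 it had 0.24. simj, a subunit of the NuRD chromatin remodelling complex, read 0.98 and 0.62 in UPD against 5.94 and 4.99 in Mock (-4.23 ± 0.96, limma adjusted p = 0.010). e(y)3, a subunit of the PBAP form of the Brahma remodelling complex, read 4.42 and 1.95 against 6.83 and 6.31 (-2.95 ± 0.67, limma adjusted p = 0.010). None of these overlapped, but the UPD arrays of HERC2 and e(y)3 were 4.08 and 2.47 apart. CG14435 (-4.94) also fell. Of the 6, e(y)3 did not pass with each array centred on its own median (limma adjusted p = 0.10).

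Lower genes with a mean above 5 and an adjusted p between 0.05 and 0.1 numbered 6. AdamTS-B, a secreted metalloprotease of the ADAMTS family, read 4.36 and 4.57 in UPD and 7.50 and 6.95 in Mock (-2.33 ± 0.59, limma adjusted p = 0.051). ACC, acetyl-CoA carboxylase, which makes the building block of fatty acids, read 6.06 and 6.73 in UPD and 8.87 and 8.89 in Mock (-2.04 ± 0.55, limma adjusted p = 0.093). Both had UPD arrays more than 2 log2 units below both Mock arrays as deposited. The DNA topoisomerase gene Top3alpha (-2.09, limma adjusted p = 0.089) and the lipid kinase gene Pi4KIIIalpha (-2.07, limma adjusted p = 0.093) were alike in size. At 2 and 4 h these 4 genes differed by between -0.10 and 0.07. The other two were gpp, a histone methyltransferase gene (-2.22, limma adjusted p = 0.093), and Br140, a bromodomain protein gene (-2.13, limma adjusted p = 0.099). A second bright probe set of gpp had -0.41 (limma adjusted p = 0.93).

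Few JAK/STAT components stood apart at 10 h. Of 21 listed components 18 were measured, 13 of them with a mean above 5, and their relative differences ran from -0.69 to 0.49 with a median of 0.05. None of the 18 passed the test (smallest limma adjusted p 0.30), and of the 13 brighter ones 0 lay higher and 2, dome and ken, lay lower without overlap, where 13.3% and 20.4% of all genes with a mean above 5 did. The receptor gene dome, itself a reported target, read 6.52 and 6.93 in UPD and 7.97 and 7.43 in Mock, which is -0.54 at 10 h after 0.64 at 2 h and 0.89 at 4 h. Both UPD arrays of dome were thus below both Mock arrays at 10 h, by less than the test could call (limma adjusted p = 0.88).

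Among the inhibitors named here and below, ken, Socs44A and Socs16D were lower in UPD, and Ptp61F and Su(var)2-10 were higher. None of them passed the test. The transcriptional repressor gene ken read 6.09 and 6.52 in UPD and 7.35 and 7.52 in Mock (-0.69 ± 0.55, limma adjusted p = 0.83). The SOCS gene Socs44A read 7.25 and 7.85 in UPD and 9.09 and 8.09 in Mock (-0.60 ± 0.56, limma adjusted p = 0.86). ken did not overlap and Socs44A did. Ptp61F, a phosphatase that acts on the kinase and on Stat92E, had 0.19 at 10 h after 0.29 and 0.44 at the earlier times. The dim Socs16D read 4.20 and 2.63 in UPD and 6.02 and 5.83 in Mock (-2.07 ± 0.70, limma adjusted p = 0.30), also without overlap. hop and Socs36E were not analysed here.

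The transcription factor gene Stat92E read 9.11 and 9.69 in UPD and 9.16 and 9.81 in Mock, a relative difference of 0.35 ± 0.57 with overlapping arrays. Su(var)2-10, the PIAS protein that inhibits Stat92E, had 0.38 and Elp2, a Stat-interacting protein, 0.49. The signs of Stat92E and Su(var)2-10 turn with the values as deposited.

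Of 21 reported targets of the pathway in vivo, 14 were measured and 7 had a mean above 5, with a median relative difference of 0.19 at 10 h after 0.27 at 2 h and 0.39 at 4 h; as deposited, the median at 10 h was -0.245. The count of 7 with both UPD arrays above both Mock arrays was 4 at 2 h (all genes 19.3%), 5 at 4 h (all genes 16.3%) and 2 at 10 h (all genes 13.3%), when another 2, dome and lama, lay below Mock without overlap (all genes 20.4%). The 2 above at 10 h were chinmo, a BTB-zinc finger protein that maintains stem cell identity, and vir-1, a gene known for its induction by viruses. chinmo read 5.57 and 6.01 in UPD and 4.35 and 5.79 in Mock (1.16 ± 0.62, limma adjusted p = 0.71). vir-1 read 5.53 and 6.91 in UPD and 5.69 and 5.89 in Mock (0.87 ± 0.58, limma adjusted p = 0.79). zfh1, a zinc finger repressor of stem cells and blood cells, had 0.50 with overlapping arrays, and lama had -0.47 after 0.27 and 0.34. None of the 14 passed the test (smallest limma adjusted p 0.67).

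Among 49 gene classes with members above a mean of 5, the lowest medians with 6 or more such members belonged to basement membrane and secreted matrix genes and to blood cell factors. The basement membrane is the sheet of collagen IV, laminin and proteoglycan that blood cells of the fly deposit around tissues. Of its 13 genes above 5 the median relative difference was -0.72, and 7 lay below Mock without overlap (20.4% of all genes) and 1 above (13.3%); 4 did so by at least 1 log2 unit, where 6.58% of all genes did. The shifted medians of the class were 7.99 and 8.63 on the UPD arrays and 9.72 and 9.67 on the Mock arrays. None of the 13 passed the test of the 4 arrays, which 0.0373% of all genes passed lower, and 4 passed with each array centred on its own median, where 2.14% of all genes did. The class median stayed below 0 in each alternative run, between -1.16 and -0.26. At 2 and 4 h it was -0.07 and -0.003, with 5 and 3 of the 13 below Mock without overlap (all genes 22.3% and 19.4%).

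Of the 13 members 11 had a relative difference below 0, and the 4 lower by at least 1 log2 unit were both collagen IV chains, Ppn and Pxn. Col4a1, a collagen IV chain, read 7.55 and 8.19 in UPD and 10.54 and 9.87 in Mock (-1.90 ± 0.57, limma adjusted p = 0.20, and 6.9e-05 with each array centred). vkg, the other collagen IV chain, read 7.41 and 7.59 in UPD and 10.01 and 9.67 in Mock (-1.91 ± 0.56, limma adjusted p = 0.19, and 9.7e-05 centred). In both, each UPD array lay below each Mock array. Ppn, papilin, had -1.89 and Pxn, peroxidasin, which cross-links collagen IV, had -1.43. SPARC, a collagen-binding protein, read 11.43 and 12.05 in UPD and 12.15 and 11.38 in Mock and had 0.41 and overlapping arrays (-0.025 as deposited).

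Blood cell factors, which share Ppn and Pxn with the matrix list, had a median of -0.62 over 12 genes, with 5 below Mock without overlap (20.4% of all genes) and 0 above (13.3%). Hml read 7.26 and 8.12 in UPD and 7.72 and 10.15 in Mock, so that its -0.81 depended on which Mock array was used. It was 0.66 without Mock replicate 2 and -2.23 without Mock replicate 1. The engulfment receptor gene drpr read 6.76 and 7.06 in UPD and 8.47 and 8.13 in Mock, with no overlap (-0.95 ± 0.55, limma adjusted p = 0.74). The class median ran from -0.83 to -0.16 with 1 array left out, the latter without Mock replicate 2.

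**Figure D3:**
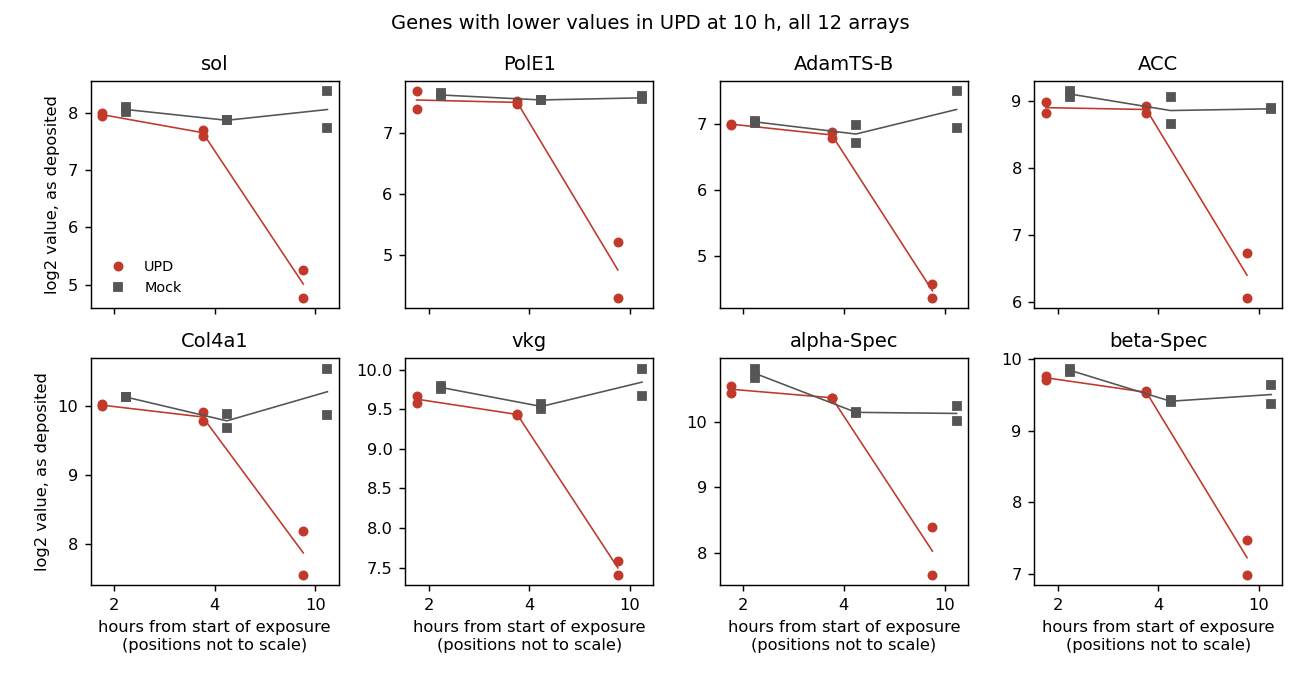
Deposited log2 values of 8 genes on all 12 arrays at 2, 4 and 10 h, with UPD arrays as red circles, Mock arrays as grey squares and lines through the means of 2 arrays; each panel has its own axis. In all 8 the media lie close together at 2 and 4 h, and at 10 h both UPD arrays lie below both Mock arrays.

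The membrane skeleton genes beta-Spec and alpha-Spec were also low at 10 h. beta-Spec, a spectrin chain of the sheet under the cell membrane, read 6.98 and 7.47 in UPD and 9.64 and 9.37 in Mock (-1.84 ± 0.56, limma adjusted p = 0.21). Its partner alpha-Spec read 7.66 and 8.39 in UPD and 10.24 and 10.03 in Mock (-1.67 ± 0.57, limma adjusted p = 0.32). Neither overlapped, and with each array centred the adjusted p-values were 2.1e-04 and 3.3e-04. The 30 actin and motility genes as a whole had a median of -0.35, with 9 below Mock without overlap (20.4% of all genes) and 4 above (13.3%), the latter a share near that of all genes.

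The 28 genes of lipid and sterol metabolism had a median of -0.32, and 4 of them were at least 1 log2 unit lower without overlap (6.58% of all genes). Besides ACC these included FASN1, fatty acid synthase, which read 9.66 and 10.38 in UPD and 11.50 and 11.72 in Mock (-1.15 ± 0.59, limma adjusted p = 0.70, and 0.0099 with each array centred), after -0.08 at 2 h and 0.42 at 4 h. They also included SCAP, which escorts the lipid regulator SREBP (-1.23, limma adjusted p = 0.65). The median of the class stayed at or below -0.04 in each alternative run.

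Chromatin regulators, 45 genes, had a median of -0.25, and 6 were at least 1 log2 unit lower without overlap (6.58% of all genes) and 0 higher (3.47%). The lowest were the histone methyltransferase gene trr (-1.87), osa, a subunit of the Brahma complex (-1.65), and nej, the histone acetyltransferase CBP (-1.40), with limma adjusted p-values of 0.26, 0.38 and 0.62. Insulin and nutrient signalling, 20 genes, had a median of 0.00 but a wide spread, from rictor (-1.70), a subunit of the TOR complex 2, to chico. Of these 20, 8 lay below Mock without overlap (20.4% of all genes) and 3 above (13.3%), and 5 of the 8 did so by at least 1 log2 unit (6.58% of all genes), among them Sik3 (-1.33) and mTor (-1.08).

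Genes of ribosome making and of mitochondria were among the classes at the higher end. Of classes with 6 or more genes above a mean of 5, the G protein genes described below had the highest median (0.59). Thioester and clotting genes (0.41 over 6 genes) and glutathione S-transferases (0.37 over 23 genes) were also high. The 42 nucleolar ribosome biogenesis genes, whose products make and assemble ribosomal subunits, had a median of 0.40, and 16 lay above Mock without overlap (13.3% of all genes) and 0 below (20.4%). The median was between 0.38 and 0.54 with any of the 4 arrays left out and -0.03 as deposited, before the shift. At the earlier times the same list had 25 of 42 above Mock without overlap at 2 h (all genes 19.3%) and 31 at 4 h (16.3%), with medians of 0.15 and 0.20, and 22 did so at both (all genes 5.82%). The highest at 10 h was Nop10, a subunit of the box H/ACA RNA-guided modifying complex, which read 10.69 and 11.22 in UPD and 10.36 and 9.81 in Mock (1.31 ± 0.59, limma adjusted p = 0.62, and 2.9e-04 with each array centred). Nph, a nucleolar histone chaperone, had 1.07 ± 0.60 and the nucleostemin family GTPase gene Ns2 0.98 ± 0.56, both without overlap. None of the 42 passed the test of the 4 arrays (0.112% of all genes did, higher), and 7 passed with each array centred, where 4.38% of all genes did.

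Mitochondrial ribosomal protein genes lay nearly all on the higher side. All but 1 of 69 had a positive relative difference, with a median of 0.54 and quartiles of 0.33 and 0.75. Of the 69, 11 lay above Mock without overlap, a share near that of all genes (13.3%), and 0 lay below (20.4% of all genes). The 4 pairings of a UPD with a Mock array gave class medians from 0.32 to 0.82, all above 0. The highest were mRpL33 (1.13), mRpS21 (1.07) and mRpL55 (1.05). All 3 passed with each array centred (limma adjusted p = 0.0044, 0.0051 and 0.013), and each passed in 3 of 14 alternative runs. None of them passed the test of the 4 arrays (limma adjusted p = 0.70, 0.72 and 0.71). The class medians at 2 and 4 h were 0.12 and -0.01.

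The respiratory chain and ATP synthase lists were close to it, with medians of 0.45 over 33 genes of cytochrome c oxidase, complexes II and III and ATP synthase and of 0.39 over 21 genes of complex I (-0.05 as deposited). Of the 33 genes 10 lay above Mock without overlap (13.3% of all genes) and 0 below (20.4%). Their highest members were COX4L (1.47 ± 0.58, limma adjusted p = 0.49) and ATPsynepsilonL (1.24 ± 0.55, limma adjusted p = 0.62). All 33 measured cytosolic ribosomal protein genes above 5 were higher, with a median of 0.42 that became -0.02 as deposited and 0.25 without UPD replicate 2; only 3 of them lay above Mock without overlap, beside 13.3% of all genes.

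Heterotrimeric G protein genes, which relay signals from membrane receptors, had a median of 0.59 over the 8 with a mean above 5, a list that leaves out the dimmer Galphaf. Galphaq read 6.90 and 7.71 in UPD and 5.86 and 6.91 in Mock (1.36 ± 0.56, limma adjusted p = 0.52), Gprk1, a receptor kinase, had 1.09 ± 0.55 and Galphas 0.92 ± 0.57. These 3 did not overlap after the shift and passed with each array centred, with limma adjusted p-values between 0.039 and 0.043. loco, a regulator that ends G protein signals, had -1.09 ± 0.56 without overlap. The class median was 0.23 without Mock replicate 1 and 1.20 without Mock replicate 2, and -0.04 and 0.01 at 2 and 4 h.

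**Figure D4:**
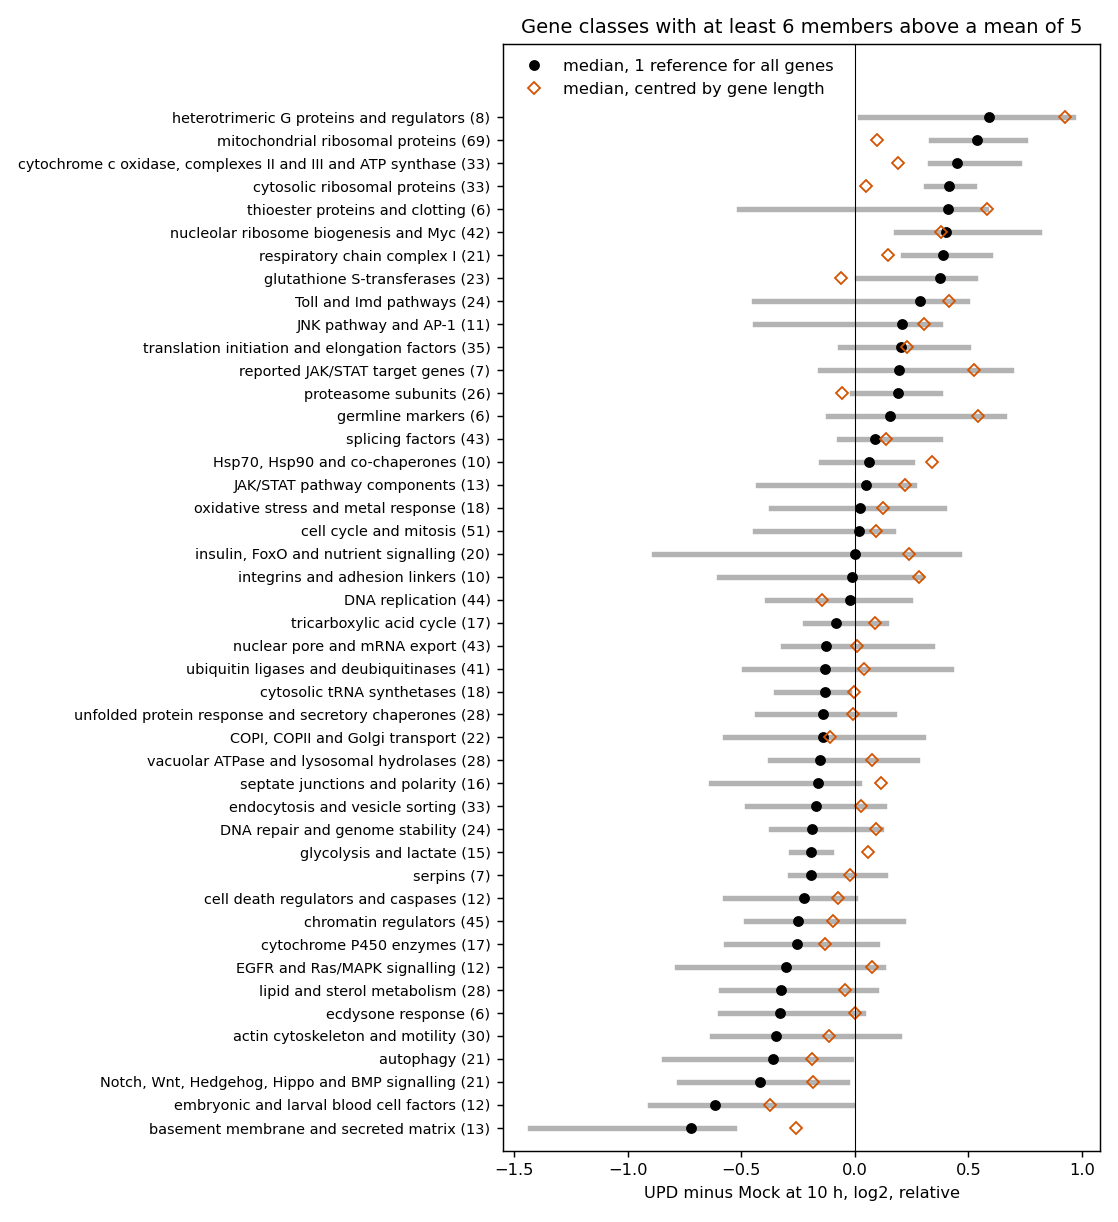
Median relative difference between UPD and Mock at 10 h (log2) of each gene class with at least 6 genes above a mean of 5, their number in brackets; black circles are medians, grey bars the quartiles and open diamonds the medians after differences were centred within bins of gene length. The nucleolar class has nearly the same median in both, 0.40 and 0.38, whereas mitochondrial ribosomal proteins go from 0.54 to 0.10 and basement membrane genes from -0.72 to -0.26.

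The relative difference at 10 h moved with the genomic length of the gene. Among the 1784 shortest of 5351 genes with a known length the median was 0.34. Of these, 99 were separated by at least 1 log2 unit above (3.47% of all genes) and 7 below Mock (6.58% of all genes). Among the 1784 longest genes the median was -0.38, with 39 separated above (3.47% of all genes) and 282 below (6.58%). Spearman's correlation of length with the difference, across genes that share the same arrays and are not independent, was -0.48 at 10 h, -0.41 at 2 h and -0.0021 at 4 h. The spread at 2 h was small: the same shortest and longest genes had medians of 0.07 and -0.05.

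The median length was 0.91 kb for the mitochondrial ribosomal proteins, which were high, and 14.2 kb for the basement membrane genes, which were low. Not all classes followed length: the G protein genes, high with 0.59, had a median of 15.3 kb, and the cytochrome P450 genes, at -0.25, had 2.1 kb. With differences centred within bins of gene length, the class medians were 0.10 for mitochondrial ribosomal proteins, 0.05 for cytosolic ribosomal proteins, -0.04 for lipid genes and -0.26 for basement membrane genes, and 0.38 for nucleolar genes and 0.92 for G protein genes. Length bins alone left sol (limma adjusted p = 0.050, below the threshold before rounding), CG4793, CG6357, CG13559 and Spn31A past the test and took PolE1 to 0.18, while ACC had 0.30 and Col4a1 0.50. With length bins and each array centred, a combination chosen after seeing the data, Col4a1, vkg, sol, PolE1, ACC and both spectrin genes passed, as did CG4793, CG6357, CG13559, Spn31A, Hsp27 and pirk; by that test 1.59% of all genes were higher and 0.673% lower. FASN1 (limma adjusted p = 0.20), Nop10 (0.17), mRpL33 (0.38), mRpS21 (0.45) and mRpL55 (0.49), which passed with array centring alone, did not. The control probe sets for both ends of Act5C differed, 3' minus 5', by 1.37 and 1.25 in UPD and 1.15 and 1.14 in Mock at 10 h, those of Gapdh by 1.87 and 2.01 in UPD and 2.19 and 2.16 in Mock, and those of eIF4A by 1.04 and 0.93 in UPD and 0.73 and 1.21 in Mock. UPD was thus the higher medium for Act5C and the lower for Gapdh, with overlap for eIF4A. The older control pairs overlapped for both genes, at 0.577 and 0.553 in UPD and 0.659 and 0.460 in Mock for Act5C and at 0.522 and 0.244 in UPD and 0.336 and 0.246 in Mock for Gapdh. The part of RNA length or quality in the class differences was not tested.

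**Figure D5:**
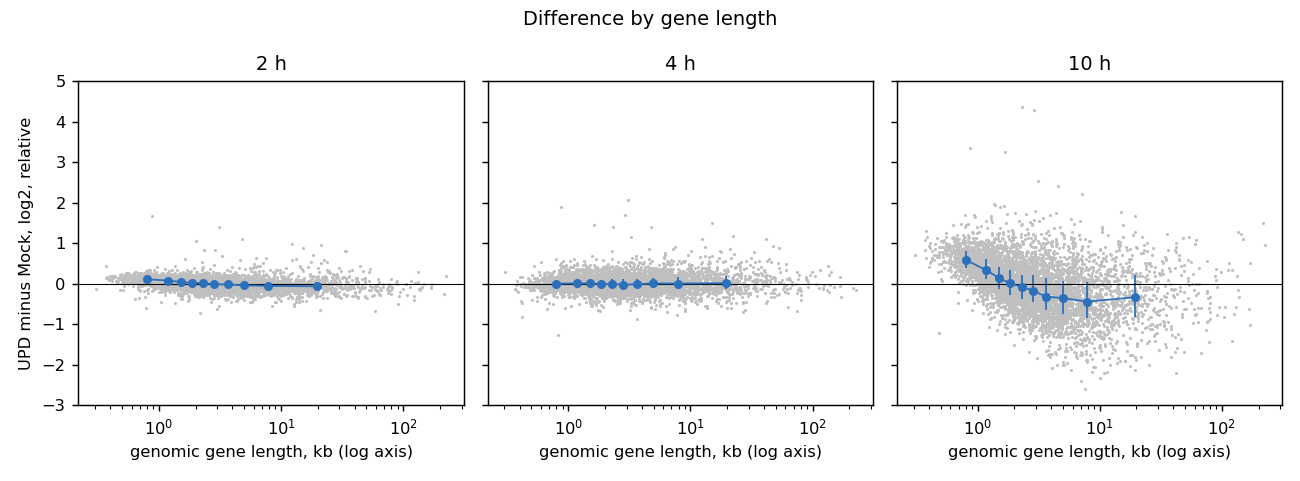
Relative difference between UPD and Mock (log2) against genomic gene length in kb on a log axis at 2, 4 and 10 h, 1 grey point for each of 5351 genes with a mean above 5 at 10 h. Blue points are medians of 10 equal bins of genes and bars their quartiles; the medians go down over the first 9 bins at 10 h, where the 1784 shortest genes have a median of 0.34 and the 1784 longest -0.38.

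The genes separated at 10 h were partly apart in the same direction at the earlier times. Of the 186 separated higher, 59 lay above Mock without overlap at 2 h and 64 at 4 h (all genes 19.3% and 16.3%), and of the 353 separated lower, 127 lay below at 2 h and 123 at 4 h (all genes 22.3% and 19.4%). The differences were mostly small. Of the 186 separated higher, 19 had a relative difference of at least 0.5 at 4 h (10.2%), against 1.60% of all 5363 genes, and 11 did at 2 h (5.91% against 0.466%). Their medians were 0.07 at 2 h and 0.14 at 4 h. Of the 353 separated lower, 9 were at or below -0.5 at 4 h (2.55% against 0.783% of all genes) and 2 at 2 h (0.567% against 0.186%). Their medians were -0.05 and -0.09.

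A direct test of the 10 h difference against the mean of those at 2 and 4 h over all 12 arrays, with array weights for each time, called 0 of 18769 probe sets, or 0.0%, in limma (410 at an unadjusted p under 0.05, smallest adjusted p 0.43). The weights were 4.93, 1.43 and 0.142 at 2, 4 and 10 h, a higher weight standing for replicates that lie closer together. Without these weights the same test called 202 probe sets, 31 higher and 171 lower. The difference between times was 3.03 for CG4793, 2.82 for CG6357, -2.49 for sol and -1.90 for Col4a1, none of them past the adjusted threshold with weights.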

How the data were processed

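The authors deposited 1 log2 value for each probe set of 12 Affymetrix arrays; the base of the logarithm was inferred from the range of the values, and no source used here names the tool or normalization behind them (not stated). Per the labels' protocols, RNA was purified with Trizol and a column and cRNA was made from 1 µg. Within each medium the deposited arrays share a median over all probe sets, so scaling and medium cannot be told apart. Of 18952 probe sets, 183 controls were left out. Gene symbols are those of the platform annotation held by GEO, brought up to date through gene IDs of a RefSeq table (13544 of 13647 single-gene probe sets matched); each gene is represented by its brightest probe set at 10 h.

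UPD was shifted by the median difference over probe sets with a mean above 5. limma 3.58.1 in R 4.3.3 fitted the 4 arrays at 10 h with a variance trend and robust moderation, and p-values are two-sided and adjusted by the Benjamini-Hochberg method over 18769 probe sets. SE is limma's moderated standard error. With 2 arrays a group, precision is limited by their number. The SE and p-value of a gene rest largely on a replicate spread pooled over probe sets of like level, not on its own replicates alone. Idgf1 had a replicate SD of 4.05 in Mock and an SE of 0.83. CG6357 had replicate SDs of 0.00049 in UPD and 0.22 in Mock and an SE of 0.55. The contrast between times used all 12 arrays, with weights per time. In data simulated for the 10 h comparison over 18769 probe sets, the test found 31% of changes of 2 log2 units and 99% of changes of 4, with 12 false calls. The changes were given to 200 probe sets in all, shared evenly between the sizes of 2 and 4 and between both directions. These figures hold for the simulated spread only, and its match to the real arrays was not tested. Among the real called genes, the Mock arrays of Cyp4p3 were 6.5 apart. The simulation therefore gives no rate of false calls among the real calls.

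The comparison, gene lists and the rule for named genes were chosen with earlier results of these data known. The rule takes the 20 largest separated differences and the 10 smallest p in each direction, up to 3 members of each class at each end, all JAK/STAT list members and 5 genes in each direction of the contrast between times. Gene classes are described by counts and medians beside those of all genes. Alternatives were quantile normalization, no shift, centring each array, centring within 10 bins of gene length, a filter on dim probe sets, other moderation, all 12 arrays, a replicate block and leaving out each array; combinations of array centring with others were chosen after seeing the data.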

Additional observations from a re-analysis of the deposited data

How the results depend on the processing

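The 26 calls at 10 h became 309 with quantile normalization (137 higher, 172 lower), 132 as deposited (19 and 113) and 444 with each array centred (297 and 147). They became 11 among probe sets with a mean above 5 and 850 with 12 arrays and 1 variance (286 and 564). There were 0 calls with 12 weighted arrays, and 0 without both the variance trend and the robust setting, with or without array centring. They were 22 with gene length bins and 11 to 45 with 1 array left out. Array centring combined with length bins gave 136 calls, with a replicate block 394 and with 1 array left out 8 and 16 (without UPD replicate 2 and 1) to 2111 and 2195 (without Mock replicate 1 and 2). Of the 26 calls, 20 were shared with quantile normalization, 25 as deposited, 19 with each array centred and 21 with length bins. The median difference was 0.00104 after quantile normalization, which makes it so by construction, and -0.73 to -0.14 with 1 array left out. The 224 probe sets separated higher became 44 as deposited and 235 to 572 with 1 array left out. The 410 separated lower became 259 with quantile normalization, 1227 as deposited, 162 with length bins, 164 with length bins and array centring, and 382 to 548 with 1 array left out. Of 49 class medians 23 were above 0, and 5 as deposited. The contrast between times went from 0 calls to 135 with quantile normalization, 10 with a mean above 5, 202 without array weights and 0 to 1 with 1 array left out. The cause of these changes was not tested.

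Among the genes named, differences as deposited changed sign for SPARC (-0.0247), Stat92E (-0.0865), Su(var)2-10 (-0.0569) and Ptp61F (-0.245). With 1 array left out, Hml ran from -2.23 to 0.66, Stat92E from -0.18 to 0.93, Su(var)2-10 from -0.26 to 1.07, Ptp61F from -0.25 to 0.68 and zfh1 from -0.21 to 1.26. The number 1 or 2 of a replicate is only a label here: the replicate differences of UPD and Mock at 10 h correlated with r = 0.0189 across 6356 probe sets, and with the number as a block 22 probe sets passed, 21 of them shared with the 26. Depth of signal limits the dim genes: 12 of the 26 called probe sets have an array below 0.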
